A study of Homo sapiens with 8 samples.

Results

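The ARP1 library labelled CHEK1 knockdown was compared with the range of the other 3 ARP1 libraries, in 4 of the 8 RNA-seq libraries of the study. ARP1 and H929 are human multiple myeloma cell lines, that is, malignant plasma cells grown in culture. In each line the labels name 4 genotypes: CHEK1 knockdown, control of knockdown, control of overexpression and CHEK1 overexpression, with 1 library each as deposited. The name of the deposited table speaks of a mean, and whether a column averages several libraries is not stated. Neither the method used to lower or raise CHEK1, nor what the controls carry, nor the number of clones or cultures behind a library is in the labels. Poly(A) RNA was sequenced as paired ends, and the deposited values are FPKM, fragments scaled to transcript length and to the size of the library, for each transcript. Here they were summed per gene. A gene was tested if it reached 1 FPKM in at least 2 of the 8 libraries, which 14905 of 24351 genes did, 11878 of them protein-coding. A tested gene counted as outside when the ARP1 knockdown library lay 2-fold or more, in FPKM plus 1, beyond all 3 others. By that rule 502 genes were outside, 323 above and 179 below. With 1 library on the side of interest there is no replicate check of its values, so sizes are given and no p-values. The spread of the other 3 libraries is set beside them. Those 3 differ in genotype, so their spread is not an error between replicates.

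CHEK1 encodes CHK1, the kinase that the ATR pathway activates when DNA replication stalls and that holds back entry into mitosis. Several of the genes described below belong to the integrated stress response, in which phosphorylation of the translation factor eIF2 slows protein synthesis in general while the transcription factor ATF4 is made and switches on genes for amino acid synthesis, amino acid import, tRNA charging and, through CHOP, cell death. Others belong to the protein-folding and protein-degradation machinery, the heat shock chaperones and the proteasome, on which plasma cells depend because they secrete large amounts of protein. Tubulins, the subunits of microtubules, adjust their own messenger RNA: free tubulin dimers trigger decay of tubulin transcripts.

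The promoters of 4 genes outside are shown because they belong to groups that lay together above or below. They are reference sequence from RefSeq (GRCh38.p14), all on the plus strand, from 250 bases before the start site to the first 50 bases from it, and capitals mark the motif found by letter match on either strand. The motifs searched were TGATGNAA, the ATF4-C/EBP element; TGACNNNGC, the antioxidant response element; and the heat shock element, GAANNTTC followed after 2 bases by GAA or TTCNNGAA followed after 2 bases by TTC. CHAC1 (chr15:40953221-40953520) holds the ATF4-C/EBP element on the minus strand, 209 bases before the start site. SESN2 (chr1:28259268-28259567) holds no match to it in this window. DNAJA1 (chr9:33025023-33025322) holds the heat shock element 3 bases past the start site. PSMD1 (chr2:231056617-231056916) holds the antioxidant response element 39 bases past the start site.
CHAC1: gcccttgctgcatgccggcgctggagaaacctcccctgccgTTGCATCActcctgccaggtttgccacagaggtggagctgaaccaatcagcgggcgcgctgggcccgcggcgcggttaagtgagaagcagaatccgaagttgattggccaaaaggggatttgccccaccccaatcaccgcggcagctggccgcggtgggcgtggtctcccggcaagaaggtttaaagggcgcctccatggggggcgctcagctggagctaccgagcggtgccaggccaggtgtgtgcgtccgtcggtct
SESN2: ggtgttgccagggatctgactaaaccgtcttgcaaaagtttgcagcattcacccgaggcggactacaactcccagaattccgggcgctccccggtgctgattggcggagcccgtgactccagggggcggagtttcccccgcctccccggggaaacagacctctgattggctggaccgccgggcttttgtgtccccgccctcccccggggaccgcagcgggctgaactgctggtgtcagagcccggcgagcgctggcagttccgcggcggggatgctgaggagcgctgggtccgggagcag
DNAJA1: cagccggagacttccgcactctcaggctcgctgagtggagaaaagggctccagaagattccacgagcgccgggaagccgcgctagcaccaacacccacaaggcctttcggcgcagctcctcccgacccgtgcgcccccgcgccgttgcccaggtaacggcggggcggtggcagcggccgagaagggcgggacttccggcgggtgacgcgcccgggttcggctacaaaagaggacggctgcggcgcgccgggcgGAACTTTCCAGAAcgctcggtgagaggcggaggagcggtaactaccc
PSMD1: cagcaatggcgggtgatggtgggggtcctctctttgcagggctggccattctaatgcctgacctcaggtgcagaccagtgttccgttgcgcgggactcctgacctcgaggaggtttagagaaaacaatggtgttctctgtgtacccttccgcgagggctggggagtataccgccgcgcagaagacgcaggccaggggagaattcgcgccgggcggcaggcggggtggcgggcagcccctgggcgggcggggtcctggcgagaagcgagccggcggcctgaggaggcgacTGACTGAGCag

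Over all 35116 promoters in the RefSeq table, 3.62% held the ATF4-C/EBP element, 0.490% the heat shock element and 13.3% the antioxidant response element. Of the 184 protein-coding genes above, 149 had a promoter in the table and 10 of these (6.71%) held the ATF4-C/EBP element, against 1.72% of the 9687 tested protein-coding genes with a promoter. Of the 124 protein-coding genes below, 101 had a promoter and 0 held it. Among the ATF4 and CHOP factors 2 of 17 promoters held it, among the 15 leading genes above 1 of 13, among the cytosolic aminoacyl-tRNA synthetases 6 of 19 and among the enzymes of serine, asparagine and one-carbon metabolism 3 of 12. Of the 3 synthetase genes outside, CARS held it and WARS and SARS did not. The heat shock element stood in 5 of 25 promoters of the heat shock chaperones, those of HSPA8, DNAJA1, DNAJB6, CHORDC1 and SERPINH1. The antioxidant response element stood in 12 of 37 proteasome promoters (32.4%), against 15.1% of tested protein-coding genes, 13.9% of the protein-coding genes below and 3 of 13 NRF2 targets. That share was not particular to the proteasome: the element stood in 7 of 25 heat shock chaperone, 4 of 15 amino acid transporter and 4 of 17 ATF4 and CHOP promoters. Among tubulins it stood in 2 of 15 and among chaperonin and prefoldin subunits in 1 of 12. Of the 4 proteasome genes outside, PSMD1 held it and PSMA3, PSMD11 and POMP did not. A match describes letters only, and a window without one says nothing of the factor.

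The targeted gene was read first. In ARP1, CHEK1 stood at 51.6 FPKM where the label is knockdown. It was at 61.0, 78.2 and 114 FPKM in the control of knockdown, the control of overexpression and the CHEK1 overexpression library; values of those 3 libraries are given in this order throughout. The library labelled knockdown was thus the lowest of the 4, but by 0.24 on the log2 scale below its nearest neighbour, well inside the 2-fold limit. In H929 the library labelled knockdown was at 84.8 FPKM against 80.7, 81.6 and 107 FPKM, within the range of the others. At the level of transcripts the 4 ARP1 libraries differed more. CHEK1-208 was at 4.59 FPKM in the knockdown library and at 2.26, 23.5 and 38.5 FPKM in the others, and CHEK1-212 at 4.03 FPKM in the knockdown library and below 1 FPKM in each other. CHEK1-209, of 661 nt, was at 11.4 FPKM in the control of knockdown and 6.17 FPKM in the CHEK1 overexpression library. It was below 1 FPKM in the knockdown library and the control of overexpression. Without CHEK1-209 the gene sum of the knockdown library would not be below that of its own control. The CHEK1 locus overlaps ACRV1 and STT3A in the annotation.

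The ARP1 knockdown library stood further from each other ARP1 library than those stood from one another. It differed 2-fold or more from its own control in 1231 genes (8.26% of those tested), from the control of overexpression in 1525 (10.2%) and from the CHEK1 overexpression library in 1793 (12%). The 3 pairs without it differed in 764 (5.13%), 826 (5.54%) and 491 genes (3.29%). The median size of the difference per gene was 0.33 to 0.39 on the log2 scale in the pairs with it and 0.21 to 0.26 in the pairs without it. The 4 ARP1 libraries held 13452 to 14092 genes at 1 FPKM or more, the highest number in the knockdown library, and 5.53% to 7.94% of summed FPKM in mitochondrially encoded genes; both knockdown-arm libraries were at the upper end, and the part of this in the differences was not tested. All 10 listed genes that define plasma cells passed the filter, their FPKM summing to 4400.5 to 5866.4 across the 4 ARP1 libraries. Markers of T and NK cells summed to 0.63 to 1.35 FPKM, myeloid markers to 1.21 to 2.46, stromal and epithelial markers to 1.61 to 5.49 and erythroid markers to 0.50 to 2.53.

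**Figure D1:**
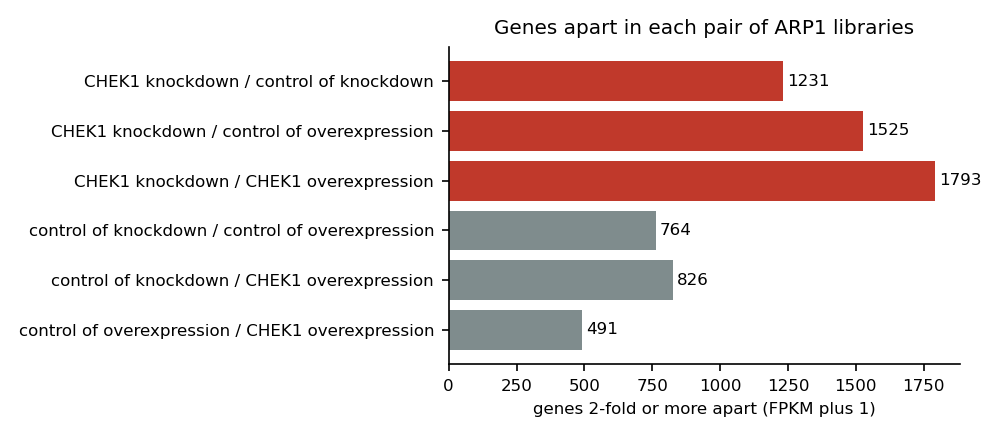
Number of genes (x axis) 2-fold or more apart in FPKM plus 1 in each of the 6 pairs of ARP1 libraries; red bars include the knockdown library and grey bars do not. The red bars run from 1231 to 1793 genes and the grey bars from 491 to 826.

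Of the 14905 genes tested, 323 (2.17%) were outside above and 179 (1.2%) outside below; among protein-coding genes the numbers were 184 (1.55%) and 124 (1.04%). By any distance, the knockdown library was above all 3 others in 4776 genes (32%) and below all 3 in 5034 (33.8%), so that a 2-fold limit keeps the far tail on both sides. The control of knockdown was the nearest of the other 3 for 174 of the 323 genes above and for 77 of the 179 below. Without that control the counts were 614 above and 380 below. The median difference over all tested genes was -0.02 on the log2 scale; FPKM is already scaled to library size, so this cannot show a shift of the library as a whole. Protein-coding genes above were low in the other ARP1 libraries (median 5.24 FPKM) and those below were high (median 29.7 FPKM), against 14.8 FPKM for all protein-coding genes tested. The rule itself sets part of this contrast: a gene below needs at least 1 FPKM in all 3 others, and a gene above does not. How large that part is was not tested. Of the 323, 45 had passed the filter only through the knockdown library itself.

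INHBE, the beta E subunit of the activin and inhibin family, led the 15 protein-coding genes with an official symbol that lay furthest above, counting only genes also outside without transcripts under 300 nt. It was at 80.9 FPKM in the knockdown library and at 10.8, 3.19 and 5.54 FPKM in the others, so that even the highest of the 3 was 6.93-fold lower in FPKM plus 1. Its log2 difference from the mean of the 3 was 3.58, with an SD of 0.75 among those 3. In bulk RNA of this kind, a change in how many cells express a gene and in its RNA per cell cannot be told apart. INHBE lies at chr12:57452323-57459280 (GRCh38, GENCODE 29). CHAC1, which breaks down glutathione, was at 63.9 FPKM against 12.4, 3.90 and 6.75, and SESN2, a leucine sensor that restrains mTORC1, at 117 FPKM against 23.6, 8.57 and 11.5. Both lay more than 4-fold above their nearest neighbour, the control of knockdown in each case. Their log2 differences from the mean of the other 3 were 3.02 (SD 0.73) for CHAC1 and 3.04 (SD 0.70) for SESN2. TRIB3, a pseudokinase that binds ATF4, was at 91.7 FPKM against 20.9, 14.0 and 14.0. For these 4 genes the control of knockdown was the second highest library. That the knockdown library lay above all 3 others follows from how the genes were chosen.

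The ATF4 and CHOP stress factors were the list furthest above. Of 22 listed genes 19 passed the filter, and of these 11 were outside above and 0 below, where 2.17% and 1.2% of all genes were. The list's median log2 difference from the mean of the other 3 was 1.82, and the medians of those 3 libraries themselves ranged from -0.18 to 0.20. DDIT3, which encodes CHOP, was at 39.3 FPKM against 8.32, 11.0 and 9.68. ATF3 was at 28.9 FPKM against 8.37, 6.46 and 6.72, and CEBPB at 55.8 FPKM against 17.8, 13.1 and 13.1. These 3 encode transcription factors of the bZIP class and were among the 11 outside above. ATF4 itself was at 618 FPKM against 347, 320 and 322, above all 3 but by 0.83 on the log2 scale and so not outside. PPP1R15A, which encodes the GADD34 subunit that reverses eIF2 phosphorylation, was at 76.1 FPKM against 24.5, 25.9 and 26. DDIT4, an mTORC1 inhibitor also known as REDD1, was at 155 FPKM, against 61.4 in the control of knockdown and 13.4 and 25.6 in the overexpression arm. STC2, a secreted glycoprotein, was at 78.2 FPKM against 18.3, 16.6 and 22.6. BBC3, which encodes the pro-apoptotic protein PUMA, was at 19.4 FPKM against 5.42, 3.92 and 5.13. Members that did not stand apart were ATF5 at 18.4 FPKM against 15.4, 23.8 and 27.7, SQSTM1 at 82.4 FPKM against 59.8, 83.2 and 74.0, and VLDLR, inside the range of the others.

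Enzymes that make serine, asparagine and one-carbon units came next, with 5 of 19 outside above, 0 below and a median log2 difference of 0.96. The share of all genes outside above was 2.17%. ALDH1L2, a mitochondrial folate enzyme, was at 44.4 FPKM against 11.2, 9.72 and 7.90. CTH, which makes cysteine from cystathionine, was at 53.4 FPKM against 14.6, 2.9 and 5.01, a wide spread among the other 3 (SD 1.02 on the log2 scale). PCK2, the mitochondrial phosphoenolpyruvate carboxykinase, was at 146 FPKM against 44.9, 21 and 19.0. GPT2, a mitochondrial alanine transaminase, was at 59.9 FPKM against 22.2, 14.6 and 20.9, and ASNS, asparagine synthetase, at 241 FPKM against 101, 42.3 and 49.8. The serine synthesis enzymes PHGDH, at 147 FPKM against 74.4, 34.1 and 41.2, and PSAT1, at 222 FPKM against 122, 63.5 and 79.8, were above all 3 but short of the limit. Not all enzymes of the list followed: ALDH18A1, of proline synthesis, was at 24.2 FPKM against 47.8, 55.3 and 53.1, below all 3, and MTHFD1 was below all 3 as well.

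Among amino acid transporters 3 of 16 were outside above and 0 below, with a median of 0.63. Over all genes 2.17% were outside above, 32% above all 3 and 33.8% below all 3. SLC6A9, the glycine transporter GlyT1, was at 43.0 FPKM against 8.97, 3.61 and 6.22. SLC7A11, the cystine importer, was at 29.3 FPKM against 11.3, 3.88 and 5.24, and its partner chain SLC3A2 at 355 FPKM against 156, 139 and 129. SLC1A5, a glutamine transporter, missed the limit narrowly at 454 FPKM against 228, 206 and 219 (distance 0.99), while SLC7A5, the light chain that also pairs with SLC3A2, was at 270.2 FPKM against 223, 180 and 186. Of the cytosolic aminoacyl-tRNA synthetases, which load amino acids onto tRNAs, 3 of 23 were outside above and 0 below, with a median of 0.42. They were WARS at 448 FPKM against 179, 134 and 130, SARS at 108 FPKM against 49.4, 41.7 and 39.4, and CARS at 80.5 FPKM against 37.6, 26.1 and 32.9. The synthetases did not move as 1 block, since 14 were above all 3 libraries and 8 below all 3, among these FARSA at 54.0 FPKM against 102, 163 and 139.

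Most genes above belonged to none of the lists: 155 of the 184 protein-coding ones. The share of all tested protein-coding genes in no list was not computed, so this count does not say whether the lists hold more genes above than others. TSC22D3, which encodes the glucocorticoid-induced leucine zipper GILZ, was at 22.5 FPKM against 2.93, 2.37 and 2.14. Transcript TSC22D3-206 carried most of this, at 19.4 FPKM against 0.64, 0.78 and 1.16. FBXO27, an F-box protein of ubiquitin ligases, was at 15.4 FPKM against 1.06, 1.74 and 1.03. Most of this was transcript FBXO27-206, at 12.6 FPKM against 0, 1.22 and 0. That transcript is 300 nt long, so the removal of transcripts under 300 nt just kept it. FBXO27-201 was at 2.60 FPKM against 1.06, 0.41 and 0.36, a log2 distance of 0.81 and inside the limit. LAIR1, an inhibitory receptor for collagen, was at 49.1 FPKM against 9.24, 10.3 and 10.9. KLHL24, a substrate adaptor of CUL3 ubiquitin ligases, was at 54.0 FPKM against 11.1, 11.0 and 12.7. In LAIR1 and KLHL24 the other 3 libraries lay close together, with an SD of 0.11 on the log2 scale in each. ERN1, which encodes IRE1, the endoplasmic reticulum stress sensor that splices XBP1 mRNA, was at 83.3 FPKM against 19.2, 20.0 and 15.9. It was the only 1 of 34 genes of the list of endoplasmic reticulum chaperones, XBP1 targets and degradation factors to be outside, near the 2.17% of all genes above. XBP1 itself was at 823 FPKM against 976, 849 and 658, within the range. SLC23A1, a vitamin C transporter, C1QTNF6, a secreted protein, PATL2, an RNA-binding protein, and ARHGAP9, a GTPase-activating protein, completed the 15 leading genes, at 9.80 to 13.7 FPKM in the knockdown library and at 0.85 to 2.77 FPKM in the others.

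**Figure D2:**
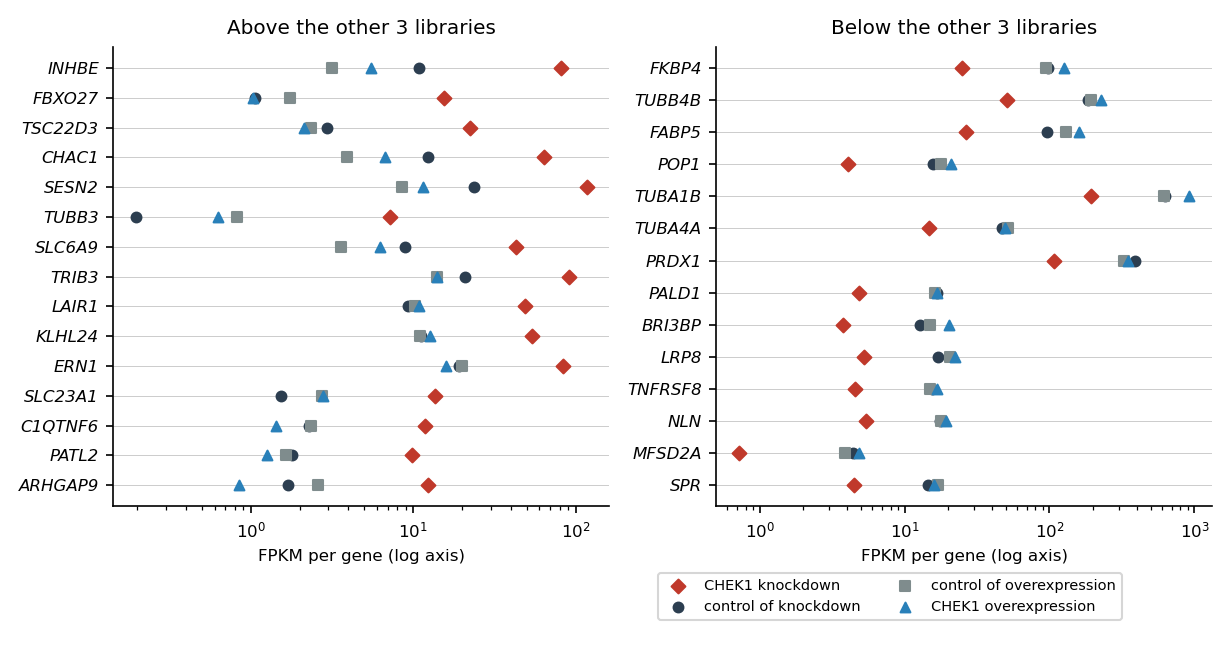
FPKM per gene (x axis, log scale) in the 4 ARP1 libraries for the 15 protein-coding genes furthest above the other 3 libraries (left) and 14 of the 15 furthest below (right), from those with an official symbol and a mean of at least 2 FPKM in ARP1. Each symbol is 1 library; the red diamond of the knockdown library is apart from the other symbols in every row, as the choice of genes requires.

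Smaller numbers came from other lists. The shares over all genes were 2.17% outside above and 32% above all 3. Of 20 myeloma surface antigens 1 was outside above, TNFRSF17, which encodes BCMA, the receptor that several myeloma treatments target: it was at 195 FPKM against 68.4, 76.2 and 88.6. SLAMF7, also a treatment target, was at 27.4 FPKM against 14.9, 16.1 and 13.3, short of the limit. IRF4, a transcription factor that myeloma cells depend on, was at 713 FPKM against 331, 431 and 330 and also short of it. Of 27 autophagy and lysosome genes 2 were outside above. WIPI1, which acts in autophagosome formation, was at 45.3 FPKM against 17.3, 12 and 8.41. TFEB, a regulator of lysosome genes, was at 39.3 FPKM against 14.1, 10.8 and 7.62, but 14.5 FPKM of this was the 223-nt transcript TFEB-216, listed at 0 in the other 3, and without transcripts under 300 nt it was not outside (distance 0.77). Of 21 listed p53 targets 2 were outside above, SESN2 and BBC3, both also in the ATF4 and CHOP list, and 10 were above all 3. BCL2, the survival gene, was just short of the limit at 110 FPKM against 54.4, 51.1 and 44.8. ABCA1, the cholesterol exporter, was outside above at 14.2 FPKM against 5.61, 1.40 and 4.62, though not when 5 was added to FPKM, and BNIP3L, a mitophagy receptor, at 26.5 FPKM against 12.7, 10.8 and 12.6.

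Tubulins were the list furthest below. Over all genes 1.2% were outside below and 2.17% above. Of 15 tested genes, which include gamma-tubulin and the folding cofactors, 7 were outside below and 1 above, and the median log2 difference was -1.08 against -0.06 to 0.02 in the other 3 libraries. TUBA1B, an abundant alpha-tubulin, was at 195 FPKM against 629, 619 and 923. TUBB4B was at 51.2 FPKM against 185, 193 and 228, the largest distance of the list below, and TUBB at 246 FPKM against 605, 782 and 838. TUBA4A was at 14.8 FPKM against 47.3, 51.6 and 49.7, and TUBA1C at 67.8 FPKM against 231, 182 and 241. In each of these the knockdown library held less than 1 FPKM for every 2 FPKM in the lowest of the others. TUBB6 and TUBB4A completed the 7, at 3.34 FPKM against 9.97, 12.2 and 8.35 and at 6.11 FPKM against 31.6, 15.4 and 13.3. The exception was TUBB3, the neuronal beta-tubulin, at 7.26 FPKM in the knockdown library and at 0.20, 0.82 and 0.63 FPKM in the others. TUBB3 overlaps another gene, AC092143.2, in the annotation, and 3 of its transcripts were at 1 FPKM or more in the knockdown library. The gamma-tubulin gene TUBG1 was at 60.4 FPKM against 98.8, 90.3 and 79.7, and the cofactor TBCA at 164 FPKM against 168, 202 and 230, both short of the limit. Tubulin genes are close copies of one another (how reads were shared among them: not given in the sources used here).

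Of the 28 listed heat shock chaperones 8 were outside below and 0 above, 24 were below all 3 libraries, and the median was -0.65. Over all genes 1.2% were outside below, 33.8% below all 3 and 32% above all 3. The list is mostly cytosolic but also holds the mitochondrial HSPD1 and HSPE1 and SERPINH1 of the endoplasmic reticulum. FKBP4, a co-chaperone of HSP90, was at 24.9 FPKM against 97.2, 94.0 and 126, a log2 difference of -2.03 (SD 0.23) from their mean, and led the 15 chosen by the same rule below. HSPA8, the constitutive HSP70, was at 373 FPKM against 869, 1036 and 1336. DNAJA1, a J-domain partner of HSP70, was at 21.8 FPKM against 53.2, 65.1 and 86.3, and HSPH1, its nucleotide exchange factor, at 11.9 FPKM against 29.1, 30.5 and 41.9. STIP1, which joins HSP70 to HSP90, was at 82.0 FPKM against 178, 206 and 251. HSPE1, the mitochondrial co-chaperonin, was at 32.0 FPKM against 72.5, 111 and 130. The inducible pair HSPA1A and HSPA1B were at 2.29 and 6.66 FPKM in the knockdown library and at 6.66 to 9.03 and 15.4 to 20.3 FPKM in the others; their sequences are nearly identical, so the split between them is uncertain, and HSPA1A was inside the limit when 5 in place of 1 was added to FPKM. SERPINH1, a collagen chaperone, was the single member above all 3, at 18.9 FPKM against 14.8, 11.9 and 6.89. None of the 14 chaperonin and prefoldin subunits was outside, yet 11 were below all 3 and 0 above, with a median of -0.65.

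Proteasome genes lay below in nearly the whole list but mostly by less than 2-fold. Of 43 subunits, assembly factors and activators, 39 were below all 3 libraries and 1 above, against 33.8% and 32% of all genes. Outside below were 4, against 1.2% of all genes. The median was -0.63. PSMD1, a subunit of the regulatory particle, was at 25.9 FPKM against 71.8, 65.1 and 82.0. PSMA3, of the alpha ring, was at 50.0 FPKM against 108, 108 and 140. PSMD11 was at 40.8 FPKM against 84.7, 96.4 and 103, and POMP, the assembly factor, at 44.1 FPKM against 104, 90.4 and 105. The immunoproteasome subunits PSMB8 and PSMB9 were within the range of the other libraries. Of the 20 ubiquitin genes and proteasome regulators 16 were below all 3, and 1 was outside: VCP, the ATPase that extracts ubiquitinated proteins, at 30.8 FPKM against 76.4, 93.0 and 96.0. PSMA3, PSMD11 and POMP lay near the limit: quantile scaling put all 3 inside it, and scaling to a common sum of FPKM put PSMD11 and POMP inside it.

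Genes of ribosome assembly in the nucleolus had a median of -0.90. The shares over all genes were 33.8% below all 3, 32% above all 3 and 1.2% outside below. Of 28, 23 were below all 3 libraries and 4 were outside: RRP12 at 11.0 FPKM against 29.9, 43.9 and 38.0, RRP9 at 12.3 FPKM against 31.1, 47.7 and 43.7, NOP16 at 20.5 FPKM against 48.4, 88.7 and 95.8 and NOP2 at 31.9 FPKM against 71.9, 114 and 112. RRP9 belongs to the U3 particle that processes ribosomal RNA, and NOP2 methylates ribosomal RNA. In these 4 the control of knockdown was the next lowest library, and over the list the medians of the other 3 ranged from -0.26 to 0.16. POP1, a subunit of RNase P and RNase MRP that was not in the list, was at 4.07 FPKM against 15.6, 17.8 and 20.8. The 64 cytosolic ribosomal protein genes did not follow: 0 were outside, 25 were above all 3 and 6 below, and the median was 0.07.

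Other genes below came from redox and lipid metabolism. The shares over all genes were 1.2% outside below and 33.8% below all 3. Of 20 listed NRF2 targets, genes of the antioxidant response, 2 were outside below and 15 below all 3. They were PRDX1, a peroxiredoxin, at 107 FPKM against 391, 327 and 346, and SRXN1, which repairs oxidised peroxiredoxins, at 6.78 FPKM against 20.8, 15 and 17.4; SRXN1 was inside the limit when 5 was added to FPKM. The 1 listed member outside above was SLC7A11, described with the transporters. NQO1 was at 12.4 FPKM against 46.9, 32.9 and 21.1, short of the limit. Of 22 genes of cholesterol synthesis and uptake 15 were below all 3, with a median of -0.53. FASN, fatty acid synthase, was at 39.7 FPKM against 86.8, 87.1 and 111, and FABP5, a fatty acid carrier, at 26.7 FPKM against 95.9, 129 and 159. LRP8, a receptor for apolipoprotein E, was at 5.23 FPKM against 17.0, 20.4 and 22.5. MFSD2A, a transporter of lysophosphatidylcholine, was at 0.72 FPKM against 4.41, 3.91 and 4.87, and was the 1 gene of the 30 leading ones to come inside the limit when 5 in place of 1 was added to FPKM.

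Among the remaining leading genes below, TNFRSF8, which encodes the surface receptor CD30, was at 4.53 FPKM against 15.6, 14.9 and 16.8. PALD1 was at 4.83 FPKM against 16.8, 16.3 and 16.8, where the other 3 had an SD of only 0.02 on the log2 scale. NLN, the peptidase neurolysin, SPR, sepiapterin reductase, and BRI3BP were at 3.77 to 5.44 FPKM in the knockdown library and at 12.9 to 20.3 FPKM in the others. ID3, an inhibitor of basic helix-loop-helix factors, was at 15 FPKM against 43.6, 87.8 and 37.6, and SRSF2, a splicing factor, at 55.7 FPKM against 115, 116 and 119. SRSF2 lay near the limit and was inside it under quantile scaling.

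**Figure D3:**
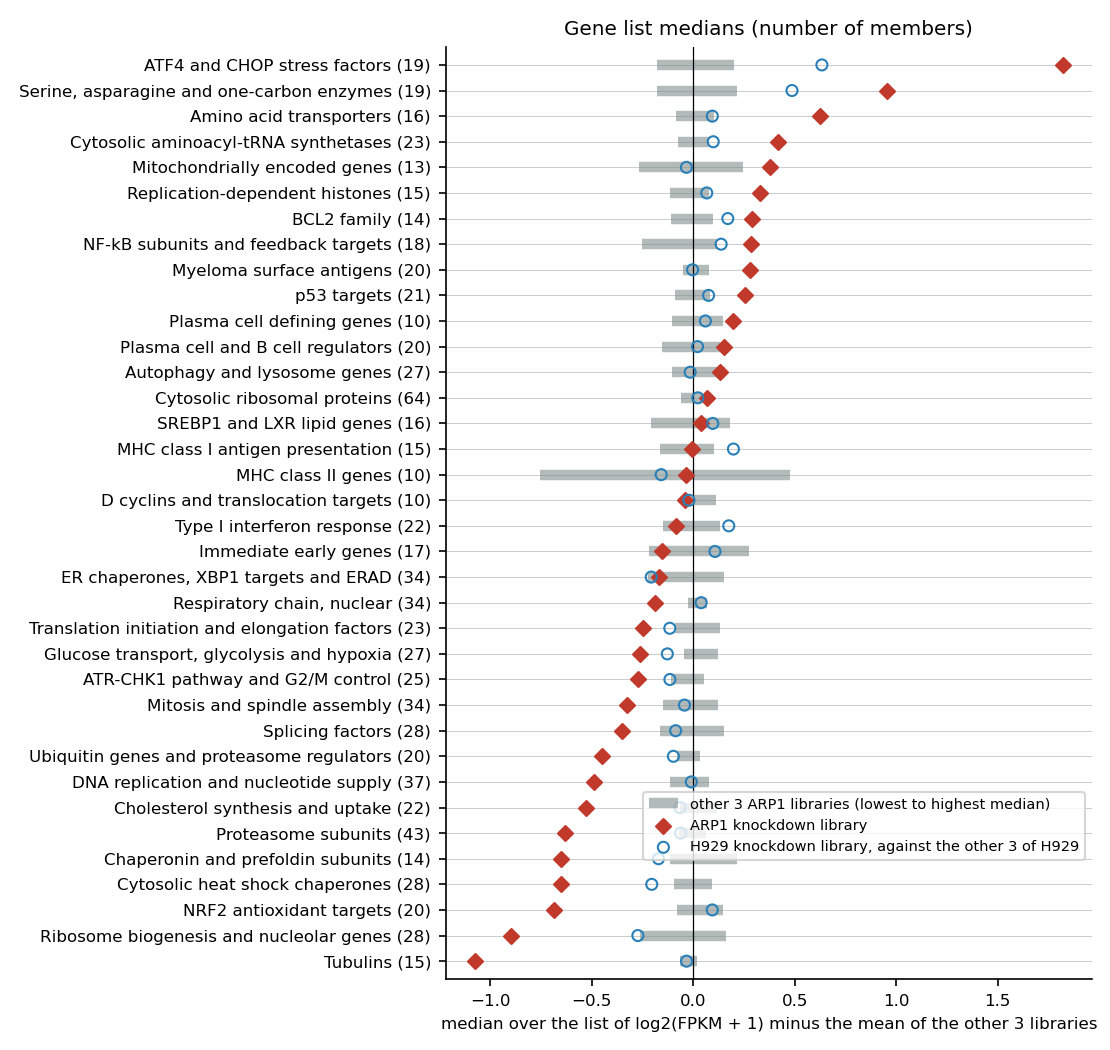
Median over each gene list (y axis, number of tested members in brackets) of log2(FPKM + 1) minus the mean of the other 3 libraries of the line. Red diamonds are the ARP1 knockdown library, grey bars run from the lowest to the highest median of the other 3 ARP1 libraries, and open circles are the H929 knockdown library. The ATF4 and CHOP list at 1.82 and the tubulins at -1.08 are the ends of the ARP1 range, and the H929 medians lie between -0.27 and 0.63.

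**Figure D4:**
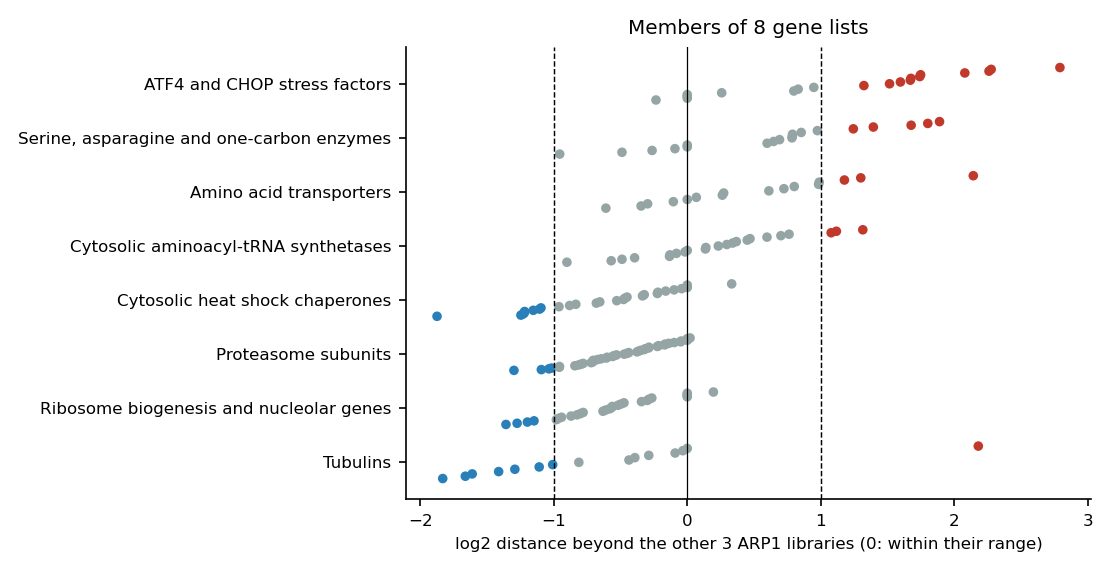
Each point is 1 tested member of 8 gene lists (y axis), at its log2 distance beyond the other 3 ARP1 libraries (x axis, 0 within their range); dashed lines mark 2-fold, and red and blue points are outside above and below. In the 4 upper lists 11, 5, 3 and 3 members are red, and in the 4 lower ones 8, 4, 4 and 7 are blue.

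Lists tied to the kinase itself held no gene outside. Over all genes 2.17% were outside above and 1.2% below, so in lists of this size 0 is near that share. Of 34 genes of mitosis and spindle assembly 0 were outside, 24 were below all 3 libraries and 0 above, with a median of -0.33: CCNB1, cyclin B1, was at 80.2 FPKM against 181, 129 and 200.0. Of 37 genes of DNA replication and nucleotide supply 0 were outside and 32 were below all 3, with a median of -0.49. FEN1, the flap endonuclease, was at 48.2 FPKM against 90.2, 121 and 113. Of 25 genes of ATR and CHK1 signalling and of G2/M control 0 were outside and 17 were below all 3. CDC25A, a phosphatase that CHK1 marks for destruction, came closest, at 14.1 FPKM against 29.1, 34.5 and 33.3. Each of these lists had more members below all 3 libraries than the 33.8% of all genes. Replication-dependent histones leaned the other way, 0 of 15 outside and 11 above all 3, where 32% of all genes were above all 3. HIST1H3B was at 1919 FPKM against 1108, 1074 and 902.

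Several lists lay within or near the spread of the other libraries. The medians of the D cyclin and translocation targets, interferon response, immediate early, MHC class I and MHC class II lists were between -0.15 and 0.00, with 0 members outside. In MHC class II genes the other 3 libraries themselves ranged from -0.76 to 0.48. The NF-kB list had 0 of 18 outside and 9 above all 3, where 32% of all genes were above all 3. Its member RELB was at 60.4 FPKM against 28.3, 30.0 and 20.5. Of 13 mitochondrially encoded genes 10 were above all 3 with 0 outside, and their median of 0.38 was close to the 0.24 of the highest other library.

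The same comparison in H929 gave 80 genes outside above (0.537%) and 47 below (0.315%). Of the 323 genes above in ARP1, 21 were also outside above in H929, 6.5% of the ARP1 list and 26.2% of the H929 list. The protein-coding part was 11 genes, 45.8% of the 24 protein-coding genes above in H929 (0.202% of those tested). They were INHBE, CHAC1, SESN2, SLC6A9, CTH, PCK2, ATF3, GPT2, SLC7A11, ASNS and HIST1H4G. HIST1H4G, at 1.91 FPKM in ARP1 and 3.07 FPKM in H929, was listed at 0 in every other library. It passed the filter only through the knockdown libraries of both lines, so the filter itself selected for its overlap. The same holds for noncoding genes such as RN7SL605P, RN7SL657P and RN7SKP99. CHAC1 was at 19.8 FPKM in the H929 knockdown library against 3.59, 3.21 and 2.66, and INHBE at 10.4 FPKM against 1.91, 1.56 and 1.38. By any distance 159 of the 323 (49.2%) were above all 3 H929 libraries, against 27.1% of all genes, and 29 were below all 3. For protein-coding genes alone the share was 58.2%. The median log2 difference of the 323 genes in H929 was 0.22, against 0.014 over all genes. In ARP1 it was 1.59, where the rule requires at least 1, so the sizes in the lines cannot be compared. Whether the lines differ was not tested, since each has 1 knockdown library.

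Of the 179 genes below, 1 was also outside below in H929, AL359880.1, listed at 0 in both knockdown libraries (0.559% of the ARP1 list and 2.13% of the H929 list). None of the 124 protein-coding ones was, where 6 protein-coding genes (0.0505%) were below in H929. By any distance 71 of the 179 (39.7%) were below all 3 H929 libraries, against 23.3% of all genes. The tubulins, at a median of -1.08 in ARP1, had a median of -0.03 in H929: TUBA1B was at 639 FPKM there against 640.2, 547 and 646. The proteasome list had a median of -0.06 and the heat shock chaperones of -0.20, with HSPA8 at 819 FPKM against 1046, 1316 and 1484. FBXO27, 6-fold above its nearest neighbour in ARP1, was at 0.92 FPKM in the H929 knockdown library against 7.22, 0.60 and 0.58, within their range. TSC22D3 was at 12.7 FPKM against 8.91, 4.02 and 6.84.

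**Figure D5:**
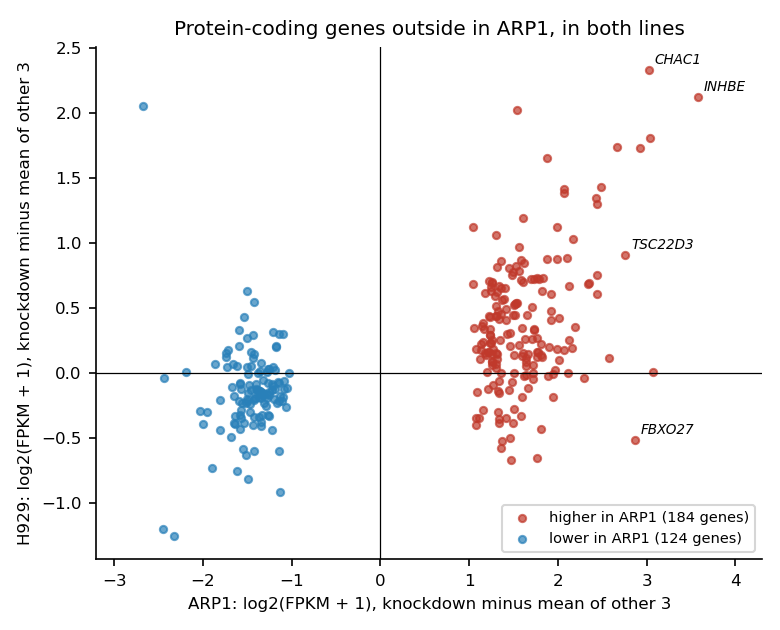
The 184 protein-coding genes above (red) and 124 below (blue) in ARP1, each at its log2(FPKM + 1) difference from the mean of the other 3 libraries in ARP1 (x axis) and in H929 (y axis). Most points lie close to the horizontal zero line; CHAC1 and INHBE are among the few far above it, and the median of the 184 genes above in ARP1 is 0.29 in H929.

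Transcripts gave a wider picture than gene sums. Of 36791 tested transcripts 800 (2.17%) were outside above and 870 (2.36%) below. Of these, 452 and 675 belonged to genes whose sum was inside. In 55 genes, transcripts were outside in both directions, and in 54 of them the sum was inside. RELA, an NF-kB subunit, shows how 1 short model can act: transcript RELA-207, 215 nt long, was at 20.0 FPKM in the knockdown library and listed at 0 in the others, while RELA-202, the main form, was at 30.2 FPKM against 25.4, 30.6 and 25.8. SLAMF7-203, of 2689 nt, was at 24.2 FPKM against 5.68, 6.5 and 6.64. Among protein-coding genes outside, ABHD4, CDKL1 and TFEB above and SMIM4 and PNPT1 below were no longer outside without transcripts under 300 nt, and HIST1H4G, at 1.91 FPKM and listed at 0 in the other 3, could not be tested without them. ABHD4 was the gene furthest above before that step, at 125 FPKM against 16.3, 16.5 and 10.1, and it and CDKL1 were left out of the leading genes for this reason.

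Classes of noncoding genes differed in the share outside. Over all genes 2.17% were above and 1.2% below. The 45 genes above that passed the filter only through the knockdown library were not divided by class. The part of the filter in these shares is thus unknown. Of 756 long intergenic RNAs 44 (5.82%) were above and 6 (0.794%) below. Of 167 genes of the class misc_RNA, 24 (14.4%) were above and 16 (9.58%) below, many of them RN7SL copies of the signal recognition particle RNA, whose near-identical sequences leave the placement of reads uncertain. RN7SL657P and RN7SL605P were at 5.38 and 5.29 FPKM in the knockdown library and at or next to 0 in the others, and RN7SL364P was listed at 0 in the knockdown library and at 13, 9.75 and 14.1 FPKM in the others. LINC02234 was at 7.94 FPKM and listed at 0 in the other ARP1 libraries, LINC02595 was listed at 0 against 5.90, 4.36 and 5.18 FPKM, and OCIAD1-AS1, antisense to OCIAD1, was listed at 0 against 24.0, 11.2 and 7.03 FPKM. Nothing in the sources used here says whether counting used strand. Antisense genes therefore cannot be told apart from their partners.

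Some genes outside lay next to one another. Within 50 kb, a distance chosen after the values were seen, 44 of the 323 genes above (13.6%) had a neighbour also above, where 5.27% of all tested genes had a gene above as neighbour; below it was 14 of 179 (7.82%) against 3.84%. The largest run was on chromosome 12, chr12:57253762-57530148 (GRCh38, GENCODE 29), with 6 protein-coding genes above: R3HDM2, INHBC, INHBE, ARHGAP9, DDIT3 and MBD6. R3HDM2 was at 80.0 FPKM against 12.5, 27.6 and 9.68, INHBC, a second activin subunit gene, at 5.03 FPKM against 0.93, 0.59 and 1.04, and MBD6 at 63.1 FPKM against 28.1, 24.2 and 28. Also on chromosome 12, TUBA1B and TUBA1C lay below with a noncoding gene beside each, at chr12:49127782-49274603. Other pairs were CTH with AL354872.2, DDIT4 with DDIT4-AS1, WARS with AL157871.4 and PDCD4 with PDCD4-AS1 above, and HSPA1A with HSPA1B below. WARS overlaps AL157871.4 in the annotation, and whether reads of 1 were counted for the other was not tested.

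The 2-fold limit itself cuts through a continuous spread. DUSP22, a phosphatase, was just past it above, at 104 FPKM against 51.7, 39.5 and 39.5, as was PPP1R32, at 3.90 FPKM against 1.45, 0.88 and 1.20. BCL2 and OR2B6 were just short of it. On the lower side ARHGDIA, a regulator of small GTPases, was just past it at 111 FPKM against 224, 311 and 286, as was SLCO4A1 at 9.10 FPKM against 19.2, 20.6 and 19.3. UBE2N, at 47.5 FPKM against 95.9, 127 and 116, and GEMIN5, at 9.07 FPKM against 19.1, 25.7 and 25, were just short of it. With 5 added to FPKM the 4 genes just past the limit were inside it. A limit of 1.5-fold gave 980 genes above and 840 below, and a limit of 3-fold gave 81 and 28.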

How the data were processed

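RNA was measured by poly(A) RNA-seq in 8 libraries, 4 each of ARP1 and H929, 1 per group, grouped by the genotype label. Per the submitters' processing notes the tools were Bowtie 0.12.2, HISAT2 2.0 and StringTie 1.3.0, and the build named is mm8, although the deposited transcript identifiers are human; annotation release: not given in the sources used here. The deposited table gives FPKM per transcript and no counts, so the depth is unknown and no interval for counting error can be given. Of 88209 transcripts 87707 matched GENCODE 29 (GRCh38) and were summed per gene; 502 did not.

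The tested values are log2(FPKM + 1), a scale that understates the change of low genes, for genes of at least 1 FPKM in 2 of 8 libraries. Distance is measured from the nearest of the other 3 libraries of the line. No test was run, since 1 library a side gives none. The named genes are CHEK1, the 15 protein-coding genes furthest above and below (an official symbol, a mean of at least 2 FPKM in ARP1, also outside without transcripts under 300 nt), 3 noncoding genes each way, up to 4 members per list in the direction of its median, the 2 genes nearest the limit on each side, and genes outside in opposite directions in the 2 lines. Of the 15 below, 1 is not reported here. Other genes named were chosen after their values were seen. The genes, gene lists and rules were chosen with earlier results of these data known. Alternatives changed the pseudocount, filter, scaling, summing, limit and set of other libraries. Values were computed with Python 3.11.15, pandas 2.3.3, numpy 2.4.6 and scipy 1.17.1, and drawn with matplotlib 3.10.9.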

Additional observations from a re-analysis of the deposited data

Results flagged for a closer look

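In 5 genes the knockdown library was 2-fold or more beyond all 3 others in opposite directions in the 2 lines, and the difference between the lines was not tested. RN7SL75P had a log2 distance of 1.24 in ARP1 and -2.80 in H929, RN7SL449P of 1.11 and -1.37, and RN7SL481P of -1.16 and 1.23. OCIAD1-AS1 had a distance of -3.01 in ARP1 and 1.51 in H929, and AC026464.4, which overlaps COG8, SNTB2 and VPS4A, of -2.48 and 1.29. All 5 distances in ARP1 but that of OCIAD1-AS1 were under 2-fold when 5 in place of 1 was added to FPKM, and 3 of the genes are copies of the signal recognition particle RNA.

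Outside the gene sums, 7 of the 502 transcripts that matched no gene of the annotation were 2-fold or more above the other 3 ARP1 libraries, of 212 that passed the same filter, and 2 were as far below.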

How the results depend on the processing

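No paired analysis was possible because the comparison within ARP1 has 1 library a group and comes from no test. Against 323 genes above and 179 below, adding 0.1 to FPKM gave 507 and 276, adding 5 gave 111 and 67, a 1.5-fold limit 980 and 840, a 3-fold limit 81 and 28, the control of knockdown as the only comparator 676 and 555, and the mean of the other 3 in place of their range 718 and 460. A filter at 5 FPKM gave 154 above and 157 below, so that 49.5% of calls were above in place of 64.3%, and protein-coding genes alone 184 and 124. Leaving out 1 of the other 3 libraries gave 393 to 614 above and 241 to 380 below, the highest without the control of knockdown. Scaling by median ratios, to a common sum or by quantiles gave 320 to 449 above and 177 to 197 below, and no scaling moved the median of all genes by more than 0.1.

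Of the genes above in ARP1, 6.5% were 2-fold above the other H929 libraries. The share was 11.5% against the H929 control of knockdown alone and 12.7% at 1.5-fold. The share above all 3 by any distance, 49.2%, was 58.2% for protein-coding genes and 62.5% against that control alone. Of the genes below, 0.559% were 2-fold below in H929, 0% without transcripts under 300 nt, 0% for protein-coding genes and 3.91% against that control alone. The share below all 3 by any distance, 39.7%, was 47.6% for protein-coding genes and 63.1% against that control alone. Apart from the 1.5-fold limit, these alternatives test fewer genes or set fewer libraries against the knockdown library. Against that control alone or at 1.5-fold, more genes pass by construction. The shares over all genes under these settings were not computed. The higher shares therefore cannot be read as a closer likeness of the lines.

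Of the list medians under other settings 498 moved by no more than the spread of the other libraries and 51 moved by more. A further 6 changed sign in a list whose median lay beyond those of the other 3 libraries. All 6 were the D cyclin list, at -0.04, which was 0.064 when 0.1 was added, 0.0096 when 5 was added, 0.064 with a filter at 5 FPKM or at 1 FPKM in another ARP1 library, 0.12 under quantile scaling and 0.011 when weighted by transcript length; the cause was not tested. Sign changes of lists within the range of the other libraries were not counted among these, and some occurred. The MHC class II median ran from -0.50 to 0.19, and that of the endoplasmic reticulum chaperone list from -0.29 to 0.087. The ATF4 and CHOP median stayed between 1.41 and 1.94 and the tubulin median between -1.57 and -0.59 under the settings run. Of the 30 leading genes only MFSD2A came inside the 2-fold limit in a setting that kept that limit, at -0.64 when 5 was added. At a 3-fold limit PALD1, BRI3BP, LRP8, TNFRSF8, NLN, MFSD2A and SPR, all below, would be inside, at 2.83-fold to 2.96-fold. The depth of the libraries is unknown, so values near 1 FPKM are the least certain.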
